A study of Mus musculus with 15 samples.

Results

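The erythroid and megakaryocyte priming genes described here are 10 genes that hematopoietic stem and progenitor cells transcribe as they become able to form red cells or platelets: Gata1, Zfpm1, Gfi1b, Klf1, Epor, Tfrc, Car1, Car2, Pf4 and Gp9. They were taken by name from the 22180 mouse genes that had a probe set with a single gene symbol, and all 10 were found, each with 1 probe set, so no choice between probe sets was needed. The cells were mouse LSK cells (lineage-negative, Sca-1 positive, Kit positive), measured on Affymetrix Mouse Gene 2.0 arrays in 3 groups of 5 arrays. The groups were LSK cells cultured for 18 h with extracellular vesicles (EV) derived from AFT cells, LSK cells cultured for 18 h without EV, and LSK cells taken after sorting and not cultured. Both cultured groups were kept in Myelocult M5300 medium, and the target was made from 500 pg of total RNA. The labels name no genotype, strain or age for any group, and although the series calls the replicates biological, they are not tied to animals, so the p-values measure the spread between these samples.

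Red cells and platelets share a progenitor whose gene programme is built around the zinc finger factor GATA1. GATA1 works with its cofactor FOG1, the product of Zfpm1, and with the repressor GFI1B on both branches. KLF1 then carries the red cell branch, on which erythropoietin acts through its receptor Epor, transferrin receptor brings in iron and carbonic anhydrases are made in quantity. Pf4 and Gp9 encode a platelet granule chemokine and a subunit of the platelet receptor for von Willebrand factor. Stem cells can hold low levels of these transcripts before they commit, which is what priming means here.

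The promoters of 4 genes are shown because 2 of them, Gata1 and Gfi1b, are the members that were higher after culture without EV, while Klf1 is the red cell factor that did not pass the test and Rhag, from a wider red cell list, had the largest rise in that list. Each sequence is RefSeq's, from build GRCm38.p6, and runs from 250 bases before to 50 bases after the start of the gene. Capitals mark AGATAA or TGATAA, the letters that GATA factors prefer, and CCNCNCCC, the letters that KLF1 and its relatives prefer, on either strand (TTATCA is TGATAA on the other strand).
Gata1, chrX:7967861-7968160, minus strand: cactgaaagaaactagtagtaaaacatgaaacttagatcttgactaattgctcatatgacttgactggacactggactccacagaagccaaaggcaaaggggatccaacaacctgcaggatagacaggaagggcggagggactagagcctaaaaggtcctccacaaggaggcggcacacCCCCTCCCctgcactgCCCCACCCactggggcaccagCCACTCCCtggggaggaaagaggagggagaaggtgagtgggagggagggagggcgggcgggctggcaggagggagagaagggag
Gfi1b, chr2:28621933-28622232, minus strand: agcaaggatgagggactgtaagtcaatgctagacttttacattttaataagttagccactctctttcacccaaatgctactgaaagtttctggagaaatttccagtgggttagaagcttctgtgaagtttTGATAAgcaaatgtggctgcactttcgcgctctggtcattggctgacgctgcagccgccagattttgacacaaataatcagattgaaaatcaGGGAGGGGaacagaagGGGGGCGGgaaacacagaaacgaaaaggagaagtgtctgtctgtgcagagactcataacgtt
Klf1, chr8:84901732-84902031, plus strand: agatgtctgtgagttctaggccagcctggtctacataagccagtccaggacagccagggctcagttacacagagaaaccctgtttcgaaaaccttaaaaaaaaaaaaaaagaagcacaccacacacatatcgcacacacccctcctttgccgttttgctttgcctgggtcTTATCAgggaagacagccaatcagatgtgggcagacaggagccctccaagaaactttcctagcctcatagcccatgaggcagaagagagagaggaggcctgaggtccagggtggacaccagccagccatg
Rhag, chr17:40810899-40811198, plus strand: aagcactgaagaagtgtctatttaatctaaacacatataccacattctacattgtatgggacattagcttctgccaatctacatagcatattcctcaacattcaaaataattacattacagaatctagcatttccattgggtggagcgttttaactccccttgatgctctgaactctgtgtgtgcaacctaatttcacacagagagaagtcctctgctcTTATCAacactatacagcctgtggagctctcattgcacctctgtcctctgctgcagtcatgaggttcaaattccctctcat
The Gfi1b promoter held TGATAA at bases 131 to 136, the Klf1 promoter held it at bases 171 to 176 and the Rhag promoter at bases 220 to 225. The Gata1 window held neither GATA word but had 3 matches to CCNCNCCC, and Gfi1b had 2. Of the 8 members with a promoter in the table, 4 had AGATAA or TGATAA (Klf1, Epor, Pf4 and Gfi1b), against 18.6% of 32817 mouse promoter windows of the same length. CCNCNCCC was found in 6 of the 8 members and in 49.5% of all windows. A match in the letters says nothing of binding, and the words were not set against the expression changes.

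Of the genes that define LSK cells, Kit had a high signal and Ly6a, which encodes Sca-1, had no single-symbol probe set and was not analysed here. Kit averaged 9.88 ± 0.21 log2 units with EV, 10.01 ± 0.08 without EV and 9.62 ± 0.25 in cells not cultured, and Cd34 averaged 10.44 ± 0.14, 10.44 ± 0.02 and 10.63 ± 0.07 in the same groups (SD, n = 5 each). Flt3, the receptor of multipotent progenitors, averaged 9.62 ± 0.03 with EV and 9.60 ± 0.06 without EV, against 8.97 ± 0.06 in non-cultured cells. Of the 10 measured genes of the wider LSK list, 7 were lower in each culture comparison, with medians of log2 -0.32 with EV and -0.24 without EV, beside 0.04 and 0.01 over all genes. By limma 2 of the 10 fell and 1 rose with EV (Mecom, log2 -0.86, adjusted p = 0.00134; Hlf, log2 -0.38, adjusted p = 0.0297; Flt3, log2 0.65, adjusted p = 4.84e-06), and 2 fell and 2 rose without EV (Mecom, log2 -0.73, adjusted p = 0.00478; Cd48, log2 -0.80, adjusted p = 0.026; Flt3, log2 0.63, adjusted p = 7.09e-06; Kit, log2 0.39, adjusted p = 0.0429). Among all genes 7.85% fell and 6.28% rose with EV, and 6.88% fell and 6.75% rose without EV. Within the non-cultured group, replicates 4 and 5 stood apart: both lay below replicates 1 to 3 for 10 of 12 granulocyte and monocyte markers, against 13.9% of all genes, and both lay above them for 6 of 10 LSK markers, against 11.5% of all genes. The mean log2 level of the 12 granulocyte and monocyte markers ranged from 8.33 to 8.70 with EV and from 8.22 to 8.84 without EV, against 6.83 to 8.12 in non-cultured cells. Among the 10 members, Gfi1b, Klf1 and Zfpm1 were higher in both of those arrays than in replicates 1 to 3, and Pf4 and Gp9 were lower. Calls of the 10 members that change without the 2 arrays, and calls of the 6 wider lists lost without them, are given both ways. The calls of the LSK markers and of the granulocyte and monocyte markers are given with all arrays only. The part of the granulocyte and monocyte markers in the results was not tested. In RNA from a whole sample, more cells of a type and more RNA per cell cannot be told apart.

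**Figure D1:**
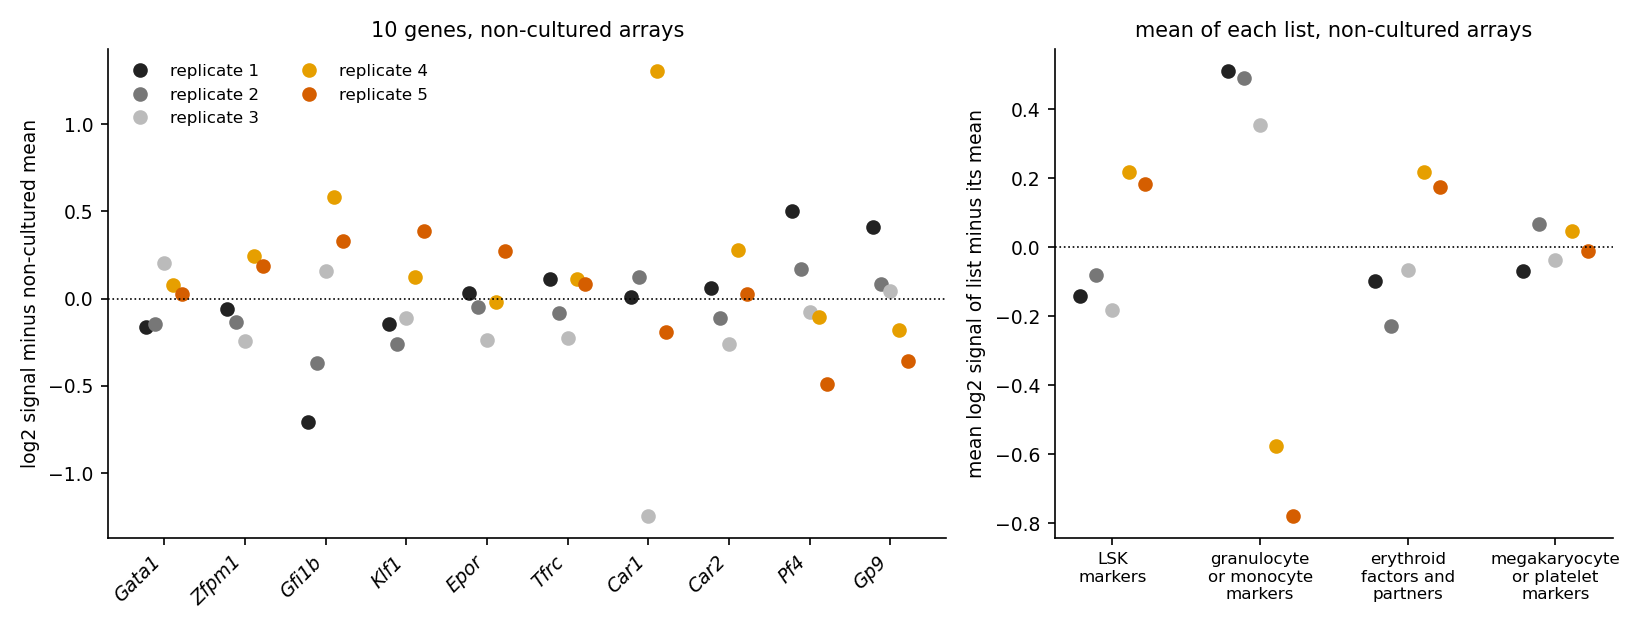
Left, log2 signal of each of the 10 genes in the 5 non-cultured arrays minus its mean over them; right, the same for the mean log2 signal of 4 gene lists. Replicates 4 and 5 (orange shades) lie above replicates 1 to 3 for Gfi1b, Klf1, Zfpm1, the LSK markers and the erythroid factors, and below them for Pf4, Gp9 and the granulocyte or monocyte markers.

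The first question was whether the vesicles changed these genes in cultured cells. None of the 10 passed the test with EV against without EV (0 of 10 by limma at an adjusted p under 0.05, and 0 of 10 at an unadjusted p under 0.05), where 0.198% of all genes passed (0.180% higher and 0.0180% lower) and 6.82% had an unadjusted p under 0.05. In every member the arrays of the 2 groups overlapped, while they did not overlap for 1.20% of all genes (0.762% higher and 0.437% lower). The differences ran from log2 -0.55 for Pf4 to 0.33 for Gp9, with a median of -0.05 beside 0.01 over all 22180 genes. For Gfi1b, the most changed member in culture, the difference was -0.03 with a 95% interval of -0.49 to 0.44, and for Klf1 it was 0.00 with an interval of -0.29 to 0.29. The intervals of Epor (-0.18 to 0.34), Car2 (-0.40 to 0.13), Tfrc (-0.30 to 0.34) and Zfpm1 (-0.44 to 0.28) also lay within 0.5 log2 units of 0. Wider intervals were left for Pf4 (-1.09 to 0.00), Gata1 (-0.74 to 0.04), Car1 (-0.95 to 0.46) and Gp9 (-0.49 to 1.15), so differences above 0.5 log2 units fall within the intervals of these 4.

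**Figure D2:**
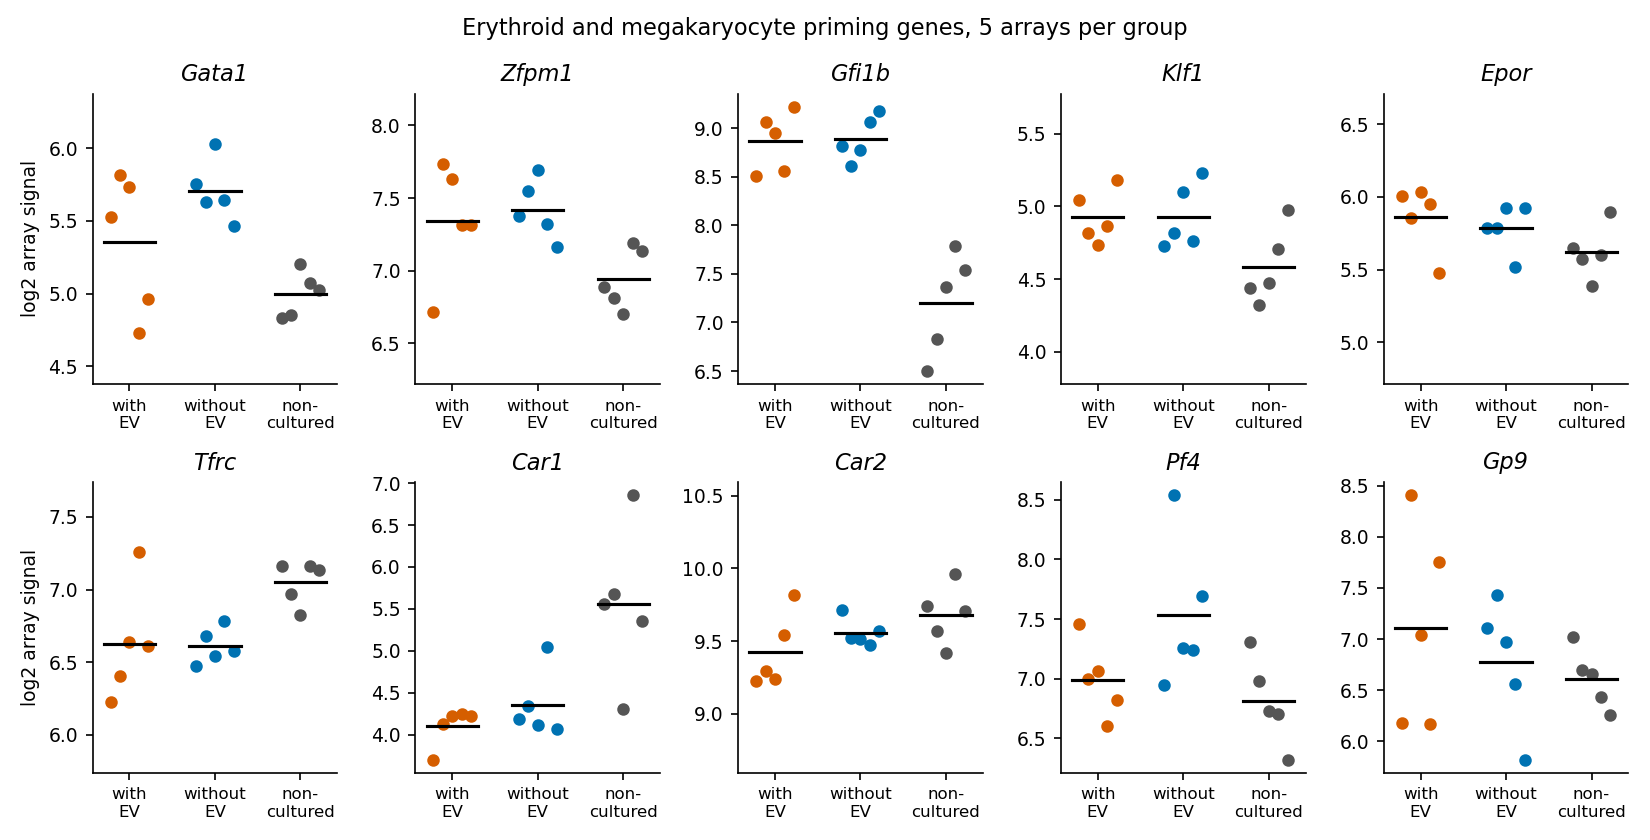
Log2 array signal of the 10 genes, with 1 point per array (replicates 1 to 5 from left to right within a group) and a line at the group mean, for the 3 groups. Each panel has its own scale, spanning at least 2 log2 units. All cultured arrays lie above all non-cultured arrays for Gfi1b, whereas for Car1 the 5 arrays with EV lie below the 5 non-cultured arrays.

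The second question was what 18 h of culture did. In the cells kept without EV, compared with non-cultured cells, the members split as follows. Of the 10 members 2 rose and 1 fell: Gfi1b rose 3.21-fold, Gata1 rose 1.63-fold and Car1 fell 2.30-fold. That is 3 of 10 called, where 13.6% of all genes were called (6.75% higher and 6.88% lower). At an unadjusted p under 0.05 there were 7 of 10 (also Klf1, Tfrc, Pf4 and Zfpm1), where 24.3% of all genes had one. The groups did not overlap for Gfi1b, Gata1 and Tfrc, against 12.0% of all genes (5.89% higher and 6.10% lower). The median difference of the 10 was log2 0.25, beside 0.01 over all genes. Culture with EV against non-cultured cells gave 1 member higher, Gfi1b, and 1 lower, Car1, where 14.1% of all genes were called (6.28% higher and 7.85% lower), and the median of the 10 was log2 0.30 beside 0.04. At an unadjusted p under 0.05 there were 5 of 10 (also Klf1, Tfrc and Zfpm1), where 26.0% of all genes had one. The groups did not overlap for Gfi1b and Car1, against 11.2% of all genes (5.06% higher and 6.18% lower). Once the dimmest 40% of genes were left out, 3166 of 13308 genes were called without EV and 3232 with EV, against non-cultured cells. Of the members, 2 were then higher and 2 lower without EV, and 1 higher and 1 lower with EV. Both comparisons use the same 5 non-cultured arrays.

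Gfi1b, the repressor needed for both red cells and megakaryocytes, changed most. Its log2 signal was 8.51, 9.07, 8.95, 8.56 and 9.22 with EV (replicates 1 to 5) and 8.82, 8.61, 8.77, 9.06 and 9.17 without EV, against 6.50, 6.83, 7.36, 7.79 and 7.54 in non-cultured cells. All 10 cultured arrays were above all 5 non-cultured ones, and the cultured groups overlapped each other. The rise was log2 1.66 with EV (SE 0.22, n = 5 per group, limma adjusted p = 6.22e-05) and log2 1.68 without EV (SE 0.22, adjusted p = 5.44e-05). The non-cultured arrays of Gfi1b spread more (SD 0.53) than the arrays with EV (SD 0.31) or without EV (SD 0.23), and non-cultured replicates 4 and 5 were its highest. Without those 2 arrays the rise was log2 1.96 with EV and 1.99 without EV. The genes whose log2 profile over the 15 arrays lay closest to that of Gfi1b, by the root mean square difference after each was centred on its own mean, were Slc43a2 (0.22), Slc18a2 (0.23) and Rbm38 (0.24).

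Gata1 separated cultured from non-cultured arrays less sharply. The log2 signal of Gata1 was 5.53, 5.82, 5.74, 4.73 and 4.96 with EV and 5.76, 5.63, 6.03, 5.64 and 5.46 without EV, against 4.83, 4.85, 5.21, 5.08 and 5.03 in non-cultured cells. Every array without EV was above every non-cultured array, whereas with EV 3 arrays were above the non-cultured range and replicates 4 and 5 lay within or below it. Gata1 rose by log2 0.70 without EV (SE 0.19, limma adjusted p = 0.0172), and with EV it differed by log2 0.35 (SE 0.19, adjusted p = 0.25). The direct difference, log2 -0.35 with EV against without EV, did not pass (adjusted p = 0.759), so the 2 cultured groups were not shown to differ. Without non-cultured replicates 4 and 5 the difference without EV was log2 0.74 with an adjusted p of 0.0517.

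Zfpm1 encodes FOG1, the cofactor through which GATA1 acts on many of its targets. It had a log2 signal of 6.71, 7.74, 7.63, 7.31 and 7.31 with EV and 7.38, 7.55, 7.69, 7.32 and 7.16 without EV, against 6.89, 6.81, 6.70, 7.19 and 7.13 in non-cultured cells. The groups overlapped, although Zfpm1 was higher without EV than in non-cultured cells in 24 of 25 pairs of arrays. It differed by log2 0.40 with EV (SE 0.17, limma adjusted p = 0.145) and by log2 0.48 without EV (SE 0.17, adjusted p = 0.078), against non-cultured cells. Replicate 1 with EV was the lowest cultured array, and without it both differences of Zfpm1 passed, at log2 0.55 with EV (adjusted p = 0.0134) and 0.48 without EV (adjusted p = 0.0209). That array is not in the comparison without EV, so its difference stayed at log2 0.48 while the shared spread changed. Both differences also passed after quantile normalization, with adjusted p = 0.0443 with EV and 0.0393 without EV. Zfpm1 stayed uncalled in 14 of the 15 fits leaving out 1 array, in each culture comparison.

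Of the red cell genes, Klf1, the factor that switches on adult globin and red cell membrane genes, had a log2 signal from 4.74 to 5.18 with EV and from 4.72 to 5.23 without EV, against 4.32 to 4.97 in non-cultured cells. The groups overlapped, and Klf1 differed by log2 0.35 with EV (SE 0.14, limma adjusted p = 0.113) and by 0.34 without EV (SE 0.14, adjusted p = 0.124). Its highest non-cultured array was replicate 5, and without that array the differences of Klf1 passed, at log2 0.44 with EV (adjusted p = 0.0338) and 0.44 without EV (adjusted p = 0.0366). With non-cultured replicates 1 to 3 alone, Klf1 passed too, with adjusted p = 0.0231 with EV and 0.0246 without EV. In each culture comparison Klf1 stayed uncalled in 14 of the 15 fits leaving out 1 array. The non-cultured Klf1 mean of 4.58 lay below the median signal of every array (4.62 to 4.74). A signal above background was therefore not shown for Klf1 in those cells. Epor, the erythropoietin receptor, ranged from 5.47 to 6.04 with EV and from 5.52 to 5.92 without EV, against 5.39 to 5.89 in non-cultured cells. Its groups overlapped, with differences of log2 0.24 with EV (SE 0.12, adjusted p = 0.227) and 0.17 without EV (SE 0.12, adjusted p = 0.489).

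Tfrc, the transferrin receptor that takes up iron, lay on the other side. Its log2 signal was 6.22, 6.41, 6.64, 7.26 and 6.61 with EV and 6.48, 6.68, 6.54, 6.78 and 6.58 without EV, against 7.16, 6.97, 6.82, 7.16 and 7.13 in non-cultured cells. All arrays without EV were below all non-cultured ones, as were 4 of the 5 with EV, the exception being replicate 4. The differences, log2 -0.42 with EV (SE 0.15, limma adjusted p = 0.0771) and -0.44 without EV (SE 0.15, adjusted p = 0.0688), did not pass. Without replicate 4 with EV they did, at log2 -0.58 with EV (adjusted p = 0.00248) and -0.44 without EV (adjusted p = 0.0101). Without replicate 1 with EV the difference without EV passed as well (adjusted p = 0.0416). Neither array is in the comparison without EV, so its difference stayed at log2 -0.44 while the spread shared by the 3 groups changed. Over the 15 fits leaving out 1 array, Tfrc stayed uncalled in 14 with EV and in 13 without EV.

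**Figure D3:**
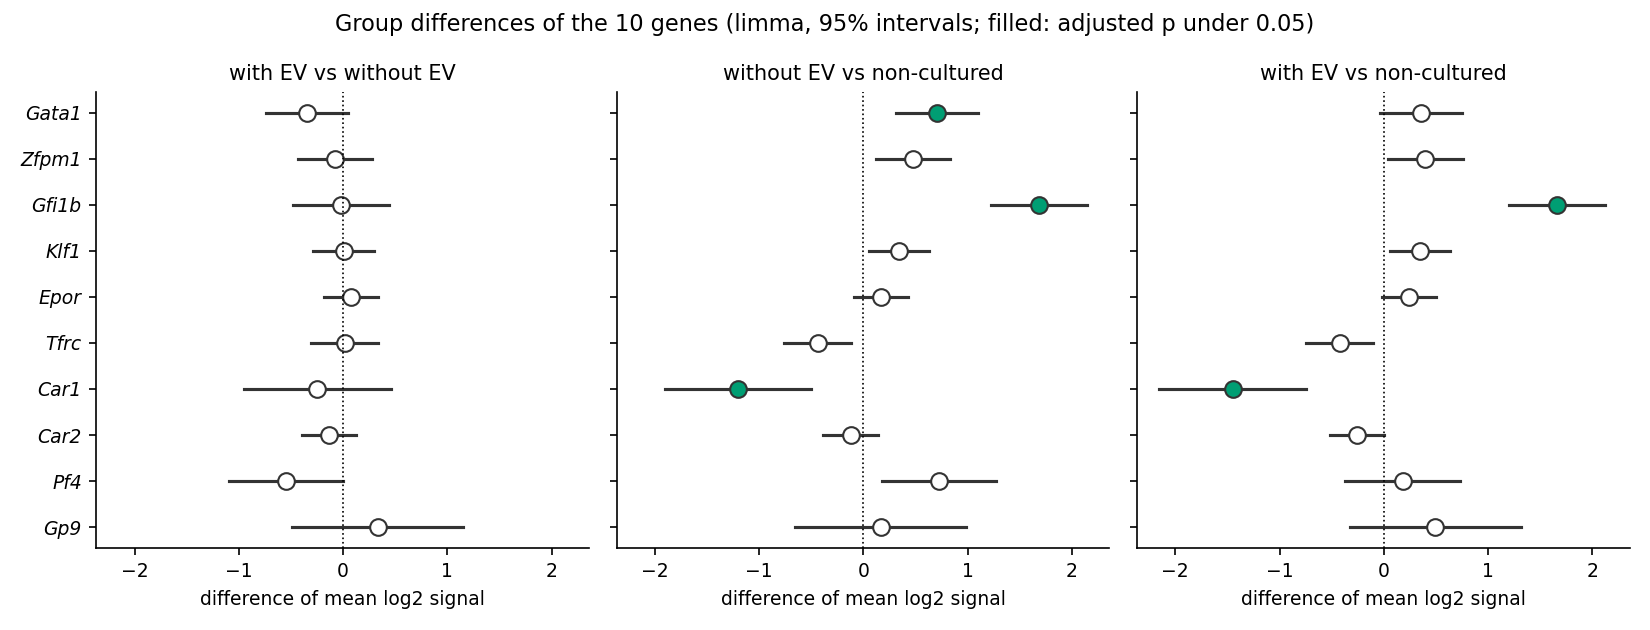
Difference of mean log2 signal for the 10 genes in the 3 comparisons, with points at the limma estimate, bars for its 95% interval and filled points where the adjusted p was under 0.05 (5 arrays per group). No point is filled for EV against without EV, and Gfi1b (higher) and Car1 (lower) are filled in both comparisons with non-cultured cells, with Gata1 filled only without EV. The difference between the 2 cultured groups for Gata1 was not called.

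Of the 2 carbonic anhydrases, enzymes that interconvert carbon dioxide and bicarbonate, Car1 fell in culture and Car2 did not pass. Car1 is the form that accumulates in the red cell branch and Car2 a form found in many cells. The log2 signal of Car1 was 3.70, 4.13, 4.22, 4.24 and 4.22 with EV and 4.18, 4.34, 4.11, 5.05 and 4.07 without EV, against 5.56, 5.68, 4.31, 6.86 and 5.36 in non-cultured cells. Cells with EV were below all non-cultured arrays, whereas without EV replicates 2 and 4 were above the lowest non-cultured array, replicate 3. Car1 fell 2.73-fold with EV (log2 -1.45, SE 0.33, limma adjusted p = 0.00693) and 2.30-fold without EV (log2 -1.20, SE 0.33, adjusted p = 0.0226). The Car1 means of 4.10 with EV and 4.35 without EV lay below the median signal of every array (4.62 to 4.74) and beside Cd4, a T cell gene, at 4.10 with EV and 4.11 without EV. The table gives no detection call, so these are folds of signal, and a fold against a signal at background is at most a lower bound. Non-cultured Car1 had the widest spread of any member in any group but 1 (SD 0.91, after 0.98 for Gp9 with EV), and its call without EV was lost when replicate 3 (adjusted p = 0.0519) or replicate 5 (adjusted p = 0.0551) of the cells kept without EV was dropped and with the spread taken from the 2 compared groups alone (adjusted p = 0.0569). With only non-cultured replicates 1 to 3, Car1 differed by log2 -0.83 without EV (adjusted p = 0.0853), and with EV it also lost its call once replicate 1 with EV was left out too (log2 -0.98, adjusted p = 0.0515). The profiles nearest to that of Car1 over the 15 arrays were those of Klf2 (root mean square difference 0.38), Ada (0.42) and Dscc1 (0.43).

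Car2 had a log2 signal from 9.23 to 9.82 with EV and from 9.47 to 9.72 without EV, against 9.42 to 9.96 in non-cultured cells. Its groups overlapped, and Car2 differed by log2 -0.26 with EV (SE 0.12, limma adjusted p = 0.198) and -0.12 without EV (SE 0.12, adjusted p = 0.645), and the difference with EV passed without replicate 5 of that group (log2 -0.36, adjusted p = 0.047). With EV, Car2 stayed uncalled in 14 of the 15 fits leaving out 1 array. In RefSeq's gene order Car13, Car1, Car3 and Car2 follow in this order on chromosome 3, and whether other genes lie between them was not examined. In the same direction as Car1, Car13 fell by 0.78 on the log2 scale without EV (SE 0.25, adjusted p = 0.0459) and differed by -0.62 with EV (adjusted p = 0.12), while Car3 differed by -0.42 with EV (adjusted p = 0.299) and -0.64 without EV (adjusted p = 0.1). Of the 12 other measured carbonic anhydrases, 1 was higher and none lower with EV, and 1 was higher and 1 lower without EV, the higher ones being Car4 with EV (log2 0.35, adjusted p = 0.031) and the hypoxia-responsive Car9 without EV (log2 1.03, adjusted p = 0.0286). Over all genes 6.28% rose and 7.85% fell with EV, and 6.75% rose and 6.88% fell without EV. Leaving out 1 array ended the call of Car13 in 9 of 15 fits, of Car4 in 6 and of Car9 in 4. Without non-cultured replicates 4 and 5 all 3 calls were lost, at log2 -0.75 for Car13 (adjusted p = 0.0948), 0.32 for Car4 (adjusted p = 0.0747) and 1.13 for Car9 (adjusted p = 0.0589). Car4 averaged 4.02 with EV and 3.67 in non-cultured cells, and Car13 averaged 4.58 without EV. These means lay below every array median, so a signal above background was not shown for them.

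The platelet genes varied widely between arrays of a group. Pf4, platelet factor 4, had a log2 signal of 7.46, 7.00, 7.07, 6.60 and 6.83 with EV and 6.94, 8.54, 7.26, 7.24 and 7.70 without EV, against 7.31, 6.98, 6.73, 6.70 and 6.32 in non-cultured cells. The group without EV was led by replicate 2, and all 3 groups overlapped. Pf4 differed by log2 0.18 with EV (SE 0.26, limma adjusted p = 0.726) and by 0.73 without EV (SE 0.26, adjusted p = 0.0783), against non-cultured cells, and when replicate 1 without EV was dropped the second value was 0.88 (adjusted p = 0.0376). Of the 15 fits leaving out 1 array, 14 kept Pf4 without EV uncalled.

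Gp9, a subunit of the platelet receptor for von Willebrand factor, had a log2 signal of 6.18, 8.41, 7.04, 6.17 and 7.75 with EV and 7.11, 7.43, 6.97, 6.56 and 5.82 without EV, against 7.02, 6.70, 6.66, 6.44 and 6.25 in non-cultured cells. The arrays with EV had the widest range, and all 3 groups overlapped. Gp9 differed by log2 0.49 with EV (SE 0.39, limma adjusted p = 0.471) and 0.16 without EV (SE 0.39, adjusted p = 0.874). Vwf, von Willebrand factor, a defining platelet and endothelial gene outside the 10, averaged 5.52 with EV and 5.53 without EV, against 5.35 in non-cultured cells, with differences of log2 0.17 (adjusted p = 0.444) and 0.18 (adjusted p = 0.449).

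Around these 10, the wider erythroid factors and partners included calls in both culture comparisons. Of 16 measured, 6 rose and 2 fell with EV against non-cultured cells, and 7 rose and 1 fell without EV, where 6.28% of all genes rose and 7.85% fell with EV, and 6.75% rose and 6.88% fell without EV. The medians were log2 0.27 and 0.30, beside 0.04 and 0.01 over all genes. With EV against without EV none of the 16 passed. Tal1, the basic helix-loop-helix partner of GATA1, rose by log2 0.86 with EV (limma adjusted p = 0.00505) and 0.91 without EV (adjusted p = 0.00321), and its relative Lyl1 rose by log2 0.93 (adjusted p = 0.00438) and 1.11 (adjusted p = 0.00108). Cbfa2t3, the ETO2 corepressor of the same complex, rose by log2 1.31 with EV (adjusted p = 0.00059) and 1.36 without EV (adjusted p = 0.000425), and Nfe2, a factor of platelet and globin genes, rose by log2 0.80 (adjusted p = 0.00263) and 0.89 (adjusted p = 0.00115).

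Klf3, a repressor that KLF1 switches on in red cell precursors, rose by log2 1.23 with EV (limma adjusted p = 0.000483) and 1.66 without EV (adjusted p = 2.95e-05). Its difference between the cultured groups, log2 -0.43, did not pass (adjusted p = 0.726). Gata2, the GATA factor of stem cells that GATA1 displaces, had the same pattern of calls as Gata1: it rose by log2 0.69 without EV (adjusted p = 0.042), while with EV it differed by log2 0.40 (adjusted p = 0.257). The difference of Gata2 with EV against without EV was log2 -0.29 (adjusted p = 0.826). Lmo2, the bridge protein of the TAL1 complex, went the other way and fell by 0.48 on the log2 scale with EV (adjusted p = 0.000423) and fell by 0.67 without EV (adjusted p = 1.76e-05), and Bcl11a, a repressor of fetal globin, fell by 0.77 with EV (adjusted p = 0.0258). Without non-cultured replicates 4 and 5 Bcl11a differed by log2 -0.41 with EV (adjusted p = 0.196) and Gata2 by log2 0.76 without EV (adjusted p = 0.0799), and leaving out 1 array ended the call of Bcl11a in 4 of 15 fits and that of Gata2 in 9 of 15. Non-cultured replicates 4 and 5 were both above replicates 1 to 3 for 8 of these 16 genes, against 11.5% of all genes.

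Of 23 measured genes for the red cell membrane, globin and heme, 2 rose and none fell in each culture comparison, where 6.28% of all genes rose and 7.85% fell with EV, and 6.75% rose and 6.88% fell without EV. The medians were log2 0.04 with EV and 0.03 without EV, beside 0.04 and 0.01 over all genes. Rhag, the Rh-associated glycoprotein of the red cell membrane, had a log2 signal of 6.52, 5.92, 6.18, 6.17 and 6.51 with EV and 6.54, 6.68, 6.39, 5.89 and 5.83 without EV, against 4.21, 3.86, 4.85, 3.95 and 3.88 in non-cultured cells. All cultured arrays were above all non-cultured ones, and Rhag rose 4.32-fold with EV (limma adjusted p = 3.28e-06) and 4.34-fold without EV (adjusted p = 3.52e-06). Its non-cultured mean of 4.15 was also below every array median, so the same limit holds for this fold. The other was Blvrb, biliverdin reductase B, which rose by log2 0.84 with EV (adjusted p = 0.00324) and 0.60 without EV (adjusted p = 0.0295). Without non-cultured replicates 4 and 5 the difference of Blvrb without EV was log2 0.66 (adjusted p = 0.0592). Fech, which inserts iron into heme, differed by log2 0.44 with EV (adjusted p = 0.165) and 0.59 without EV (adjusted p = 0.0585). The adult globins and Alas2 had no single-symbol probe set and were not analysed here. The 3 measured markers of mature red cells had a mean log2 level between 5.09 and 5.41 with EV and 5.02 and 5.49 without EV, against 4.21 and 4.70 in non-cultured cells. Of these 3 only Rhag was called, while Slc4a1, the anion exchanger band 3, averaged 5.45 with EV and 5.54 without EV, against 5.39 in non-cultured cells, and Epb42, a protein of the membrane skeleton, differed by log2 0.14 with EV (adjusted p = 0.506) and 0.14 without EV (adjusted p = 0.583).

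**Figure D4:**
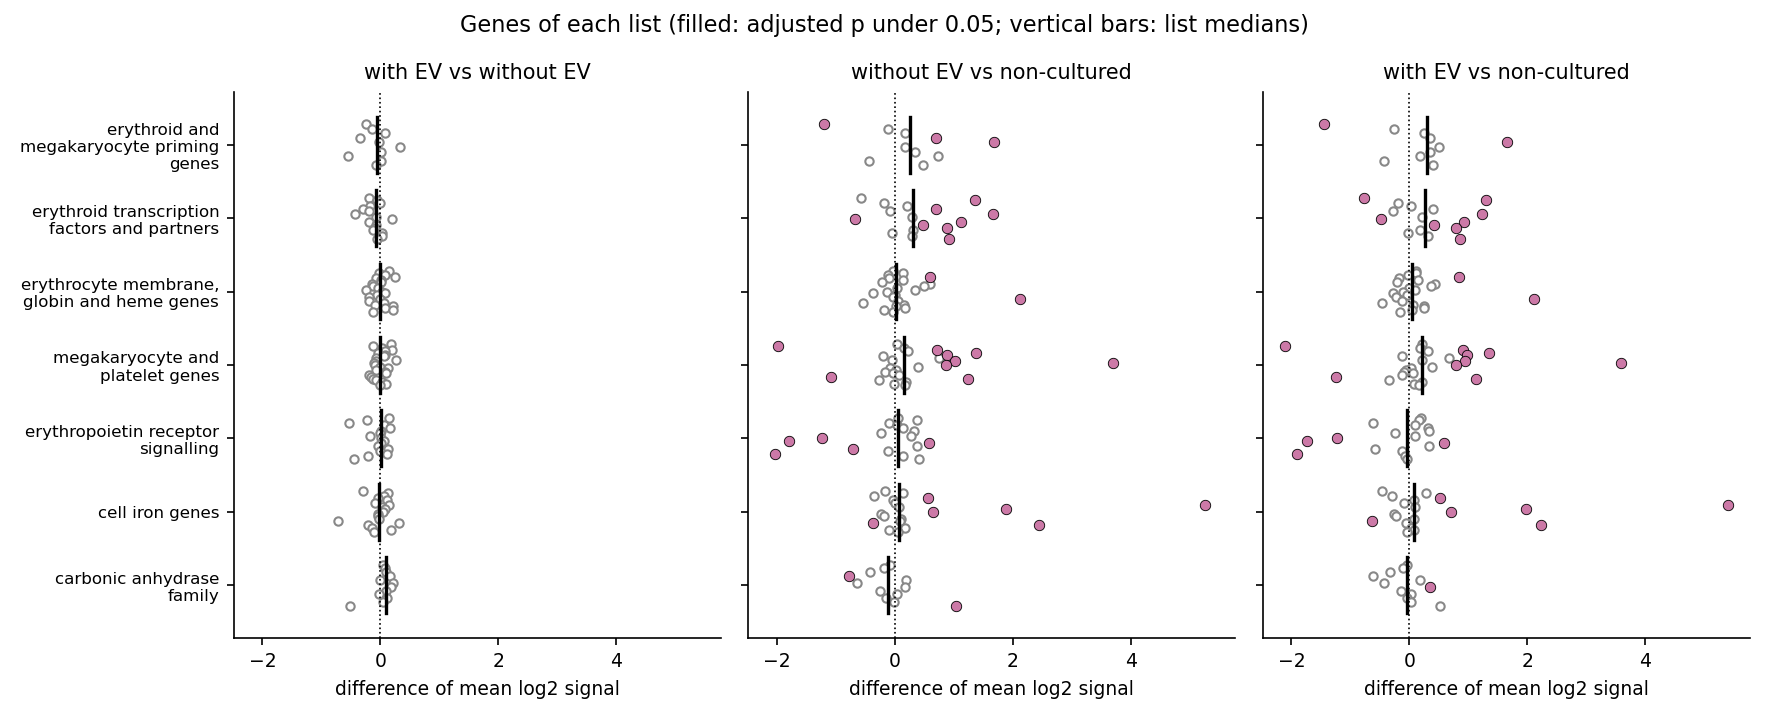
Difference of mean log2 signal for each measured gene of the 10 priming genes and 6 wider lists in the 3 comparisons, with filled points where the limma adjusted p was under 0.05 and a vertical bar at each list's median. No point is filled for EV against without EV, and in culture the largest rises are Hmox1 among the cell iron genes (log2 5.40 with EV and 5.25 without EV) and Itgb3 among the megakaryocyte and platelet genes (log2 3.58 and 3.70).

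Of 25 measured megakaryocyte and platelet genes outside the 10, 7 rose and 2 fell in each culture comparison, against the same shares of all genes (6.28% higher and 7.85% lower with EV, 6.75% and 6.88% without EV). The medians were log2 0.21 with EV and 0.15 without EV, beside 0.04 and 0.01 over all genes. Non-cultured replicates 4 and 5 were both above replicates 1 to 3 for 7 of these 25 genes, against 11.5% of all genes. They were both below for 8, against 13.9% of all genes. Among the rises, F2rl2 was higher by log2 0.97 with EV (limma adjusted p = 0.0283) and 0.89 without EV (adjusted p = 0.046). Leaving out 1 array ended its call in 4 of 15 fits with EV and in 10 of 15 without EV. Itgb3, the beta chain of the platelet fibrinogen receptor, had a log2 signal of 8.91, 8.76, 8.99, 9.01 and 8.90 with EV and 8.69, 9.23, 8.87, 9.16 and 9.17 without EV, against 5.27, 4.77, 4.97, 5.69 and 5.95 in non-cultured cells. The cultured arrays were all above the non-cultured ones, by log2 3.58 with EV (limma adjusted p = 4.3e-09) and 3.70 without EV (adjusted p = 2.5e-09). Its alpha partner Itga2b, CD41, rose by log2 0.94 with EV (adjusted p = 0.000265) and 1.02 without EV (adjusted p = 0.000123), and Tbxas1, thromboxane synthase, by log2 1.13 (adjusted p = 1.55e-05) and 1.24 (adjusted p = 5.71e-06). The 2 that fell were Selp, the platelet and endothelial adhesion molecule P-selectin (log2 -1.25 with EV, adjusted p = 1.29e-06, and -1.09 without EV, adjusted p = 5.71e-06), and Angpt1, angiopoietin 1 (log2 -2.11 with EV, adjusted p = 6.55e-06, and -1.98 without EV, adjusted p = 1.32e-05). The mean log2 level of 8 megakaryocyte and platelet markers, Itga2b among them, ranged from 4.96 to 5.41 with EV and from 4.92 to 5.18 without EV, against 4.75 to 4.89 in non-cultured cells, and 1 of the 8 passed, Itga2b. Of 12 granulocyte and monocyte markers, 5 rose and 1 fell with EV, and 6 rose and 2 fell without EV. The part of such cells in the rises of Itgb3, Itga2b and Tbxas1 was not tested.

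Of 17 measured genes of erythropoietin receptor signalling, 1 rose and 3 fell with EV, and 1 rose and 4 fell without EV, while 7.85% of all genes fell and 6.28% rose with EV, and 6.88% fell and 6.75% rose without EV. The medians were log2 -0.04 with EV and 0.06 without EV, beside 0.04 and 0.01 over all genes. The feedback inhibitor Socs3 fell by 1.91 on the log2 scale with EV (limma adjusted p = 4.09e-05) and fell by 2.03 without EV (adjusted p = 2.29e-05). Pim1, a kinase induced by STAT5, fell by 1.74 with EV (adjusted p = 2.46e-05) and fell by 1.80 without EV (adjusted p = 1.76e-05), and Osm, oncostatin M, fell by 1.23 with EV (adjusted p = 0.00321) and fell by 1.23 without EV (adjusted p = 0.00315). Without non-cultured replicates 4 and 5 Osm differed by log2 -0.73 with EV (adjusted p = 0.00714) and -0.74 without EV (adjusted p = 0.00696). Ptpn6, the phosphatase SHP-1 that shuts off the receptor, rose by log2 0.59 with EV (adjusted p = 0.00249) and 0.57 without EV (adjusted p = 0.00298). None of the 17 passed with EV against without EV, Cish having the largest difference (log2 -0.53, adjusted p = 0.748).

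Beside the lower values of Tfrc, 19 other genes of cell iron were measured, of which 5 rose and 1 fell in each culture comparison, where 6.28% of all genes rose and 7.85% fell with EV, and 6.75% rose and 6.88% fell without EV. The medians were log2 0.07 in both, beside 0.04 and 0.01 over all genes. The lower calls, the mitochondrial iron carrier Slc25a28 with EV (log2 -0.63, limma adjusted p = 0.0338) and the metal transporter Slc39a14 without EV (log2 -0.37, adjusted p = 0.0469), were lost in 6 and 12 of the 15 fits that left out 1 array. Without non-cultured replicates 4 and 5 they were log2 -0.52 (adjusted p = 0.166) and -0.32 (adjusted p = 0.182). Hmox1, heme oxygenase, which frees iron from heme, was at a mean of 10.80 with EV and 10.65 without EV, against 5.40 in non-cultured cells (42.1-fold and 38.1-fold, limma adjusted p = 6.07e-10 and 6.9e-10). Slc40a1, the iron exporter ferroportin, rose by log2 2.24 with EV (adjusted p = 1.42e-06) and 2.44 without EV (adjusted p = 5.79e-07) over a non-cultured mean of 3.88, below every array median, and Fth1, ferritin heavy chain, by log2 0.53 (adjusted p = 3.63e-05) and 0.56 (adjusted p = 1.84e-05). Lcn2, the siderophore-binding protein of neutrophils, rose by log2 1.98 with EV (adjusted p = 0.000275) and 1.89 without EV (adjusted p = 0.000401). These rises came beside higher granulocyte and monocyte markers, of which 5 of 12 rose and 1 fell with EV, and 6 rose and 2 fell without EV, and the part of other cell types in them was not tested. With EV against without EV none of the 19 passed.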

How the data were processed

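The deposited table held 41345 probe sets by 15 arrays. Its log2 values were made by the authors, who name MAS5 without a version per the submitters' processing notes; background correction, normalization and the base of the logarithm are not stated there, and base 2 was taken from the range of 1.4 to 13. Array medians lay between 4.62 and 4.74, and no 2 arrays were identical. No depth applies to arrays, whose number limits precision (median SE 0.13 log2 units for EV against without EV). Probe sets were named from GEO's platform annotation (23521 with 1 symbol, 1814 with several, 16010 with none), and the brightest single-symbol probe set stood for each of 22180 genes.

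limma 3.58.1 (R 4.3.3) fitted group means over all 15 arrays (12 residual and 3.66 prior degrees of freedom), with two-sided p-values adjusted by Benjamini-Hochberg over all genes and called at 0.05. The fit was tested on simulated data. Fold changes are 2 to the power of the log2 difference. The members and the 6 wider lists were chosen with earlier results of these data known. The text names all 10 members, Gata2, Tal1, Itga2b and Vwf, up to 4 genes of each list with the smallest p in each comparison, and up to 3 genes of nearest profile to a member whose group means span more than 1 log2 unit. Outside this rule, Bcl11a and F2rl2 were named after their values were seen. Of the marker lists, LSK genes that passed, Kit, Cd34 and a few others were also named after their values were seen. Alternatives were other normalizations, a filter on dim genes, the spread from 2 groups, a replicate block, subsets of arrays and leaving out each of the 15 arrays. Further ones were robust moderation with a mean-variance trend, the mean over a gene's probe sets, and all single-symbol probe sets kept apart.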

Additional observations from a re-analysis of the deposited data

Results flagged for a closer look

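In 2 of 30 groups of 5 arrays (10 genes in 3 groups), 1 array lay far from the other 4, judged by its gap to the nearest array over the whole range of the group; chance gives about 1 in 20. Both concern Car1. Replicate 1 with EV had the lowest Car1 signal of its group, log2 3.70, with a gap of 0.792 of the range. Replicate 4 without EV had the highest Car1 signal of its group, log2 5.05, with a gap of 0.719 of the range.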

How the results depend on the processing

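Over 25 alternatives (15 of them leaving out 1 array), 697 of 750 differences of the 10 genes kept their direction and side of the threshold, 8 lost the call, 21 gained it and 24 changed sign. Some of the 750 had little room to change. The settings on probe sets left the member values as they were, as each member has 1 probe set. Each left-out array is also absent from 1 of the 3 comparisons. Members called between EV and without EV stayed at 0 in all alternatives. Gfi1b was called in all 25 in both culture comparisons. Members lower without EV against non-cultured numbered 1, but 0 with non-cultured replicates 1 to 3 only (also with EV replicates 2 to 5 only), 2 under the replicate block and 2 without the dimmest 40% of genes; leaving out 1 array gave 0 to 2. Members higher with EV against non-cultured numbered 1, but 2 with non-cultured replicates 1 to 3 only, 3 when also limited to EV replicates 2 to 5, and 2 after quantile normalization; leaving out 1 array gave 1 to 2. Members lower in that comparison numbered 1, but 0 with both limits, and 1 to 2 leaving out 1 array. Over all genes, EV against without EV gave 44 calls and 29 to 53 leaving out 1 array, with 29 without replicate 2 of the group without EV. Tfrc without EV against non-cultured passed under the replicate block (adjusted p = 0.047), once dim genes were filtered (adjusted p = 0.0494) and with the spread of the 2 compared groups alone (adjusted p = 0.00882). Under that last setting Zfpm1 without EV passed (adjusted p = 0.026) and Car1 did not (adjusted p = 0.0569), so 1 lower member there is Tfrc in place of Car1. That setting alters the spread and left the differences as they were (log2 -0.44 for Tfrc and -1.20 for Car1). For the wider lists, non-cultured replicates 1 to 3 only left 1 of the red cell genes higher without EV (2 in all arrays), no cell iron gene lower in either culture comparison (1 each in all arrays), 1 erythroid factor lower with EV (2 in all arrays) and no carbonic anhydrase higher in either (1 each in all arrays).

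The changes of sign were small and uncalled. Between EV and without EV, Klf1 was -0.021 with median centring, -0.025 with both limits, and -0.013 after quantile normalization (leaving out 1 array, -0.059 to 0.080); Tfrc was -0.010 with median centring (-0.14 to 0.12); Gfi1b was 0.062 with both limits and 0.025 after quantile normalization (-0.11 to 0.062); Zfpm1 was 0.078 with both limits (-0.18 to 0.078). Against non-cultured cells, Gp9 without EV was -0.014 with non-cultured replicates 1 to 3 only, and -0.014 with both limits, and Pf4 with EV was -0.016 with non-cultured replicates 1 to 3 only and -0.13 with both limits.

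Replicate numbers paired the arrays weakly at most: the deviations of same-numbered arrays from their group means correlated between -0.125 and 0.187 over 15 pairs. Between the cultured groups these correlations ran from 0.0231 to 0.187. There 1 of 5 arrays with EV and 3 of 5 without EV correlated best with their own number. With non-cultured arrays they ran from -0.125 to 0.0585. With the replicate block, 39, 2987 and 3063 genes were called for EV against without EV, without EV against non-cultured and EV against non-cultured, beside 44, 3022 and 3135 without it. Each member had 1 probe set, so no second probe set could be compared.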
